A study of Mus musculus with 2 samples.

Results

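Mir22 is the gene of the microRNA miR-22, 1 of 2202 microRNA genes counted in the gastrocnemius, the large calf muscle. It was selected by its identifier, ENSMUSG00000065529.1 in the GENCODE M21 annotation, and because its level was already known to be high and to differ between the libraries. Its level and that difference are therefore described here without a test. The small RNA came from adult male mice of 18 to 20 months of the strain B6CASTF1/J, the first-generation cross of C57BL/6J and CAST/EiJ. There were 2 libraries, labelled as biological replicates 1 and 2 of 1 group, with inserts under 30 nt and no treatment or second tissue. The replicates had separate biosample entries and the same donor entry, so the labels do not show that they came from different animals, and the spread between them may be technical. The counts assigned to microRNA genes numbered 4442692 for replicate 1 and 2156222 for replicate 2.

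A microRNA gene is transcribed into a longer RNA that folds into a hairpin, from which Drosha and Dicer cut a short duplex. A strand of the duplex, loaded into an Argonaute protein, pairs through its seed, bases 2 to 8, with sites in the 3′ untranslated regions (UTRs) of messenger RNAs and lowers their output. In mice miR-22 is known as abundant in heart and skeletal muscle, as raised in cardiac hypertrophy, and as needed for the heart's response to stress. In human fibroblasts it has been linked to senescence. The data here hold no messenger RNA, so they say nothing about its targets' levels.

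The hairpin and both mature arms are shown because the counts are per gene and do not separate the arms. Capitals mark the arms in the hairpin and the seed in the mature sequences, which come from RefSeq on GRCm38.p6, the build that mm10 names.
Mir22 hairpin: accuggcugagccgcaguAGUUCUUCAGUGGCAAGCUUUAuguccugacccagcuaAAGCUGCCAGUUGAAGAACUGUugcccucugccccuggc
mmu-miR-22-5p: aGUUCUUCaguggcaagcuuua
mmu-miR-22-3p: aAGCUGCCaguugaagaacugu

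The hairpin of 95 bases lies at chr11:75463716-75463810 on the plus strand of mm10. The 5p arm takes its bases 19 to 40 and the 3p arm its bases 57 to 78. In the minimum free energy fold from RNAfold, 19 base pairs joined the 22-base arms, and every base of the 3p seed was paired. The fold had −41.9 kcal/mol, or −0.441 per base, against a median of −0.407 per base over 997 mouse hairpins of the same RefSeq table, 34.7% of which were more stable per base. Mir22 thus had an ordinary hairpin stability.

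The whole hairpin sits in an exon of a noncoding host gene. Mir22hg, the miR-22 host gene, spans 75461539 to 75466676 on the same strand, and both of its annotated transcripts carry the hairpin in exon 2. A non-coding transcript of the protein-coding gene Tlcd2 carries it in exon 2 as well, while the other 3 Tlcd2 transcripts do not overlap it. Wdr81, 8999 bp away, was the nearest protein-coding gene that does not overlap it, and Prpf8, a core protein of the spliceosome, lay 23006 bp away on the other side.

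No microRNA gene at another locus came close to Mir22 in sequence. The longest stretch it shared with another of the 2202 hairpins, on either strand, was 13 bases, with Mir6998. By contrast, 1087 of the 2202 genes share 20 bases or more with a hairpin at another locus. Among 141767 annotated M21 transcripts the full 3p and 5p arms were found in Mir22, Mir22hg and Tlcd2 transcripts, all at this locus, and in no other. Multimapping reads, 73.8% of all reads of replicate 1 and 70.2% of those of replicate 2, were not assigned to genes. The search covered annotated transcripts and not the whole genome, and how many reads of Mir22 were among them was not tested.

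The seed of the 3p arm, AGCUGCC, belonged to no other of 1679 mature mouse microRNAs in the RefSeq table. The seed of the 5p arm, GUUCUUC, was not shared either. Such seeds are common, since 72.1% of these mature microRNAs had a seed of their own. No second gene in that table carries either miR-22 seed.

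Sites for the 3p seed are shown in messenger RNAs that other work has named as miR-22 targets. A site of 7 bases, GGCAGCT, is the complement of the seed, and a following A makes the 8-base form, GGCAGCTA. Capitals mark the site in the 3′ UTR.
Sirt1: ttttccaaaacttgtGGCAGCTAactttt
Esr1: aggaaaattattcagGGCAGCTAattttg
Hdac4: ttgcacgccaaactcGGCAGCTttgggga
Ppara: ctaggcccctcctttGGCAGCTcctttga

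All coordinates given for sites are those of the 7 bases, without a following A. Sirt1, the NAD-dependent deacetylase, had its site at chr10:63320155-63320161 on the minus strand. The oestrogen receptor gene Esr1 had its 8-base site at chr10:5003637-5003643 on the plus strand. Those of Hdac4, a class II histone deacetylase of muscle, and of Ppara, the fatty acid sensing receptor, lay at chr1:91929850-91929856 on the minus strand and chr15:85802129-85802135 on the plus strand. Purb, Tet2, Max, Cdk6 and Sp1, named as targets too, each had at least 1 site of 7 bases on the messenger strand. Of these genes and the ones printed, Sirt1 and Esr1 had the 8-base form. Over all 21007 genes with an annotated 3′ UTR, taking the longest one of each, 12.8% held the 7-base site and 1.96% the 8-base form. The reverse complement of the 7-base site was held by 13.9%. Of UTRs of like length, 12.8% held the 7-base site at the length of Max and 54.2% at that of Cdk6. Published targets are often found through this very match, so the count is a description of letters.

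Mir22 was among the most abundant microRNA genes in both libraries. It had 664956 counts in replicate 1 and 74126 in replicate 2. As a share of counts assigned to microRNA genes this was 14.97% in replicate 1 (Wilson 95% interval 14.93 to 15.001) and 3.44% in replicate 2 (3.41 to 3.46). Scaled to 1000000 assigned counts per library (CPM), the level was 149674 in replicate 1 and 34378 in replicate 2. About 1 in 6.68 assigned counts of replicate 1 was Mir22, against 1 in 29.1 of replicate 2. The mean was 92026 ± 81527 CPM (SD, n = 2), a coefficient of variation of 88.6%.

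All of these counts lay on the strand of the gene. The opposite strand had 0 counts in both libraries, and the counts without strand were the same 664956 in replicate 1 and 74126 in replicate 2. A count of 0 allows a level of at most 0.675 CPM in replicate 1, and of at most 1.39 CPM in replicate 2. Intervals and limits cover counting error only, since PCR-amplified reads are not independent molecules. Against the median of the 324 genes with 2 CPM or more in both libraries, 51.0 CPM in replicate 1 and 48.0 CPM in replicate 2, Mir22 stood 2936 times higher in replicate 1 and 716 times higher in replicate 2.

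**Figure D1:**
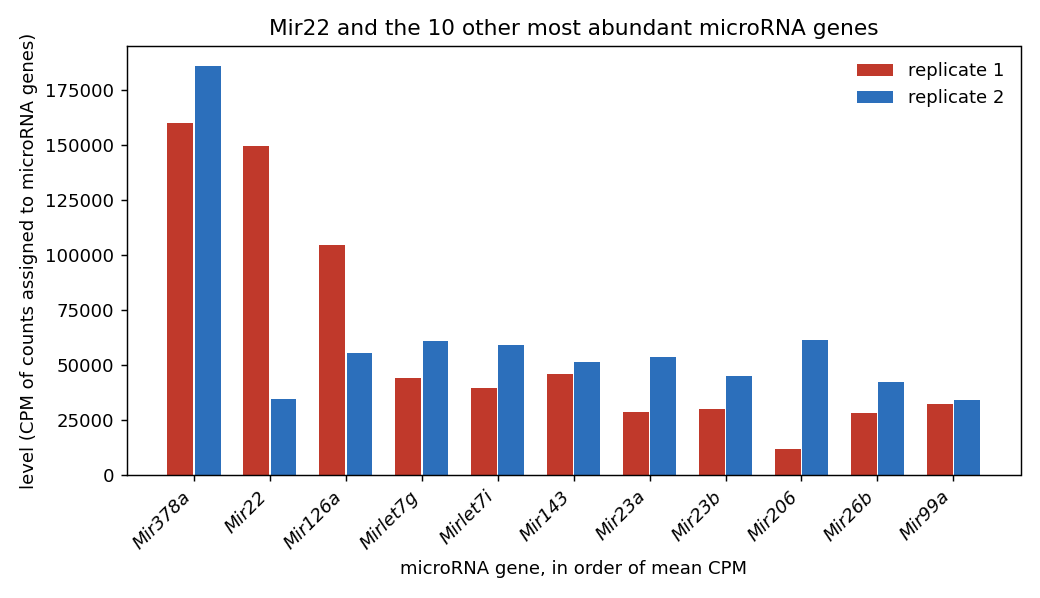
Level in CPM (vertical axis) of Mir22 and the 10 other genes with the highest mean, with 1 bar for replicate 1 and 1 for replicate 2 of each gene. Mir22 stands at 149674 CPM in replicate 1 and 34378 CPM in replicate 2, while Mir378a leads in both at 159985 and 185734 CPM.

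The order of levels placed Mir22 at rank 2 in replicate 1 and at rank 10 in replicate 2. In replicate 1 it followed Mir378a, the microRNA gene within the PGC-1beta gene, at 159985 CPM, and preceded the endothelial gene Mir126a at 104418 CPM and the smooth muscle gene Mir143 at 46025 CPM. In replicate 2 it stood below Mir23b at 44840 CPM and Mir26b at 42455 CPM, and above Mir99a at 33978 CPM and Mirlet7b at 30875 CPM. With Mir99a it was close to level there, at 1.01 Mir22 counts per Mir99a count (exact 95% counting interval 1.001 to 1.02).

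By the mean of both libraries Mir22 had rank 2, but the spread between them does not fix that place. The ranges of 8 genes overlapped its range of 34378 to 149674 CPM. They were Mir126a, Mirlet7g, Mirlet7i, Mir143, Mir23a, Mir23b, Mir206 and Mir26b, the genes at ranks 3 to 10 of the mean. Mir378a was the 1 gene whose range lay wholly above, and all others lay below. Mir378a shares 20 bases with Mir378c and had 0 counts in the column without strand in both libraries, so its lead over Mir22 rests on the counts of the gene's strand. On the gene's strand and over all genes, the level can therefore be stated only as between ranks 2 and 10. By the mean it had rank 1 with the counts without strand, or with genes that share 20 bases with another locus left out.

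Mir22 was 4.08-fold higher in replicate 1 than in replicate 2, a log2 ratio of 2.03 with an exact 95% counting interval of 2.02 to 2.04. The ratio was computed on CPM + 1 after TMM scaling, a trimmed-mean correction for differences in composition, and the interval on the counts alone. It describes these libraries and carries no replicate check. Of all reads of the table, multimapping and unmapped reads included, Mir22 held 2.34% in replicate 1 and 0.682% in replicate 2, a 3.44-fold difference. In bulk tissue, fewer cells of a type and less RNA per cell cannot be told apart.

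Differences between the libraries were common. Of 380 genes with 10 or more summed counts, 31.6% differed 2-fold or more, 18.7% higher in replicate 1 and 12.9% higher in replicate 2. Of the 228 genes with 100 or more summed counts, 17.1% were 2-fold or more higher in replicate 1 and 11.4% in replicate 2. Mir22 was chosen from this comparison, so nothing is read from its place among them. Of the 380 genes, 18 had a ratio at least as high, Mir22 included, and 30 had a ratio at least as large in either direction. Their median log2 ratio was −0.020, with an SD of 1.13.

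Of 22 genes with a mean of 10000 CPM or more, none had a higher ratio of replicate 1 over replicate 2. The next in that direction were Mir21a, a microRNA gene of stress and fibrosis, at a log2 ratio of 0.92, and Mir126a at 0.82. The muscle gene Mir206 was the only one of the 22 further from 0, and in the other direction, with 11810 CPM in replicate 1 and 61540 CPM in replicate 2. Its log2 ratio was −2.47 and its coefficient of variation 95.9%. Mir100 had the smallest coefficient of variation of the 22, at 1.22%, with 16763 CPM in replicate 1 and 17056 CPM in replicate 2. These are the same samples that served to choose Mir22, so the comparison is a description.

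**Figure D2:**
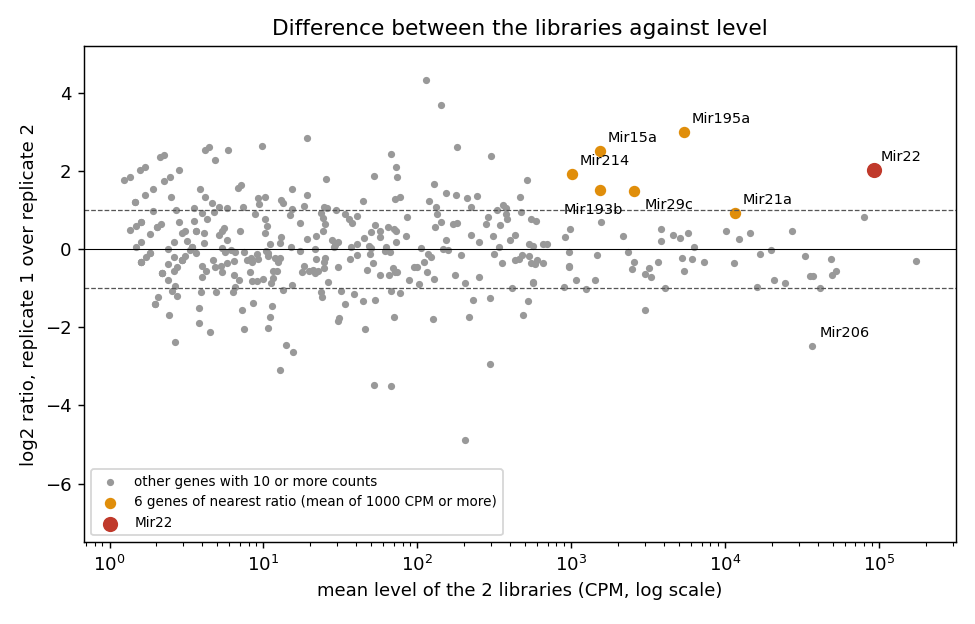
Log2 ratio of replicate 1 over replicate 2 (vertical axis, TMM-scaled CPM + 1) against the mean level (horizontal axis, CPM on a log scale) for the 380 genes with 10 or more counts. Dashed lines mark 2-fold differences, orange points the 6 genes whose ratio was nearest to that of Mir22. Mir22 lies at 2.03 and has no gene of 10000 CPM or more above it.

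Mir22 alone made up about as much of the change in composition as all other genes on its side together. The genes with a larger share in replicate 1 gained 23.0 percentage points over replicate 2 in sum, of which Mir22 took 11.5 points, or 50.05%. Mir126a followed with 4.90 points and Mir30a with 1.06 points. On the other side, the share of Mir206 in replicate 1 minus that in replicate 2 was −4.97 points, and that of Mir378a −2.57 points. Shares must sum to the same total, so a larger share of Mir22 lowers the others by construction.

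Ratios within a library avoid that dependence, because they use no library total. Their difference between the libraries, in log2, is the log2 ratio of Mir22 minus that of the other gene, apart from the added 1 CPM. Mir22 was chosen for its difference, so these ratios restate the values above and are no separate check. For each of the 10 most abundant other genes, Mir22 had more counts relative to that gene in replicate 1 than in replicate 2. Per count of Mir378a there were 0.936 Mir22 counts in replicate 1 and 0.185 in replicate 2, a 5.05-fold difference. Per count of Mir143 there were 3.25 in replicate 1 and 0.667 in replicate 2. Mir126a and Mir206 marked the ends of the range. The smallest difference was against Mir126a, 1.43 in replicate 1 and 0.621 in replicate 2, or 2.31-fold. The largest was against Mir206, 12.7 in replicate 1 and 0.559 in replicate 2, or 22.7-fold.

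On the log2 scale the 10 differences, replicate 1 minus replicate 2, ran from 1.21 to 4.50 with a median of 2.64. Over the 7 of these genes that share no 20 bases with another locus the median was 2.60. Mir22 outnumbered 9 of the 10 genes in replicate 1, all except Mir378a. In replicate 2 it outnumbered 1 of them, Mir99a. Relative to its ratio, the widest exact 95% counting interval was that for Mir99a in replicate 2, at 1.01 (1.001 to 1.02).

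**Figure D3:**
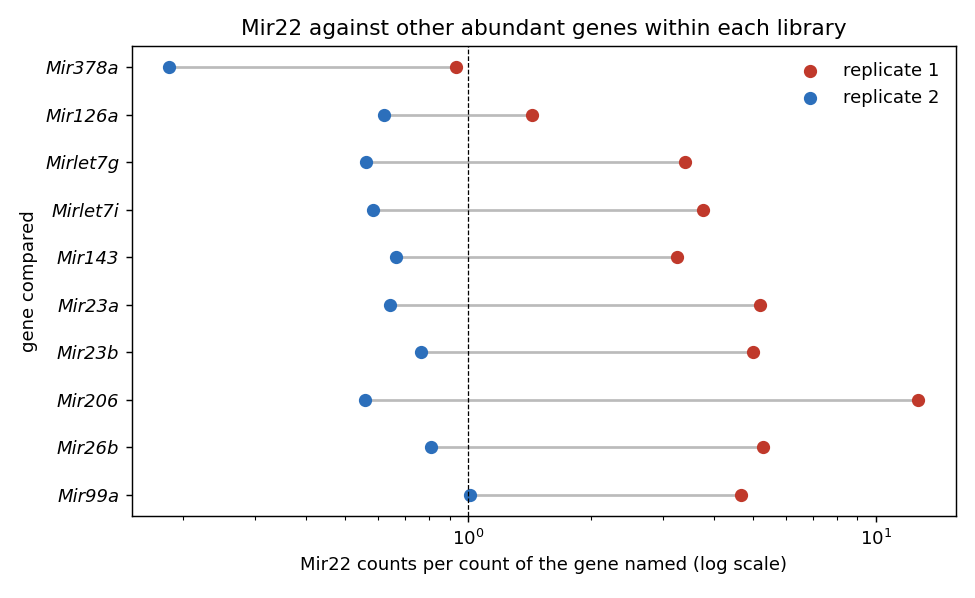
Mir22 counts per count of each of the 10 other most abundant genes (horizontal axis, log scale), in replicate 1 and replicate 2, with a dashed line at equal counts. Every replicate 1 point lies to the right of its replicate 2 point, from 1.43 against 0.621 for Mir126a to 12.7 against 0.559 for Mir206.

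The genes most like Mir22 in this difference were sought among the 52 with a mean of 1000 CPM or more. Likeness was the absolute difference of log2 ratios over the 2 libraries, so it rests on 1 number per gene. Mir214, a microRNA gene of mesenchymal and heart tissue, was nearest at a log2 ratio of 1.93, with 1620 CPM in replicate 1 and 398 CPM in replicate 2. Mir15a, of the mir-15 family that restrains cell division, had 2650 and 437 CPM in replicates 1 and 2, a log2 ratio of 2.50. Mir193b stood at 1.51 and Mir29c, of the family that targets collagen messages, at 1.48. Mir195a, of the mir-15 family too, stood at 3.002, with 9660 CPM in replicate 1 and 1130 CPM in replicate 2. Mir21a was the sixth. All 6 were less abundant than Mir22 in both libraries.

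None of the 6 shares a seed with either arm of miR-22. Mir15a and Mir195a share one with each other, AGCAGCA, and are printed for comparison with the 3p arm above, with the seed in capitals.
mmu-miR-15a-5p: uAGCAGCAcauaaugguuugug
mmu-miR-195a-5p: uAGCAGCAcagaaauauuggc

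Genes further along chromosome 11 did not share one pattern. The 2 nearest microRNA genes, Mir3971 at 87619 bp and the gene model Gm47300 at 145108 bp on the other side, had no count in either library. Mir132, an activity-regulated gene of neurons and heart, was the next on that other side, 289969 bp away. Its log2 ratio was −1.29, from 138 CPM in replicate 1 and 319 CPM in replicate 2. Mir423, more than a megabase away on the first side, had 4607 and 3027 CPM in replicates 1 and 2, a log2 ratio of 0.51. No other microRNA gene of the tables lies within Mir22hg.

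Of 22 other microRNA genes tied to muscle growth and stress with 10 or more counts, 3 were 2-fold or more higher in replicate 1 and 5 in replicate 2, with a median log2 ratio of 0.18. Over all 380 genes tested 18.7% were so in replicate 1 and 12.9% in replicate 2, and these small lists are given as counts only. Those higher in replicate 1 were Mir195a, Mir214 and Mir29c. Those higher in replicate 2 were the myosin intron genes Mir499 (−2.95), Mir208b (−1.73) and Mir208a (−3.10), with Mir132 and Mir24-1 (−1.11). Of 16 genes tied to senescence and ageing, 1 was 2-fold or more higher in replicate 1, Mir29c, and 3 in replicate 2, Mir155 (−1.02), Mir128-2 (−2.04) and Mir24-1, beside the same 18.7% and 12.9% of all genes for replicates 1 and 2. Their median was 0.086. The senescence gene Mir34a, a target of p53, had 500.1 CPM in replicate 1 and 598 CPM in replicate 2, at −0.35. The median over all 380 genes tested was −0.020. Mir22 itself is on neither list.

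The tissue label was checked against muscle-enriched microRNA genes, 10 of whose 12 had 10 or more counts. The list summed to 1.64% of replicate 1 and 6.57% of replicate 2, led by Mir206, and Mir133c had no count. Mir206 alone, at 11810 CPM in replicate 1 and 61540 CPM in replicate 2, set the direction of that sum. The 10 genes with 10 or more counts had a median log2 ratio of 0.26. Of the 10, 3 were 2-fold or more higher in replicate 1, Mir1a-2, Mir133b and Mir1a-1, and 4 in replicate 2, Mir206, Mir499, Mir208b and Mir208a, again beside 18.7% and 12.9% of all genes for replicates 1 and 2. Mir486, the remaining abundant member, had 4241 CPM in replicate 1 and 3417 CPM in replicate 2. The named Mir1a and Mir133 genes, except Mir133c, share 20 bases with other loci, so their low counts are uncertain.

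Marker lists of other cell types differed between the libraries in both directions. The erythroid genes Mir451a and Mir144 summed to 0.0777% of replicate 1 and 0.0109% of replicate 2, both 2-fold or more higher in replicate 1. The endothelial list, which is Mir126a with Mir126b at 0, held 10.4% of replicate 1 and 5.54% of replicate 2. Lower in replicate 1 were the leukocyte list, at 0.229% against 0.363% in replicate 2, the fibroblast and stroma list, at 0.326% against 0.484% in replicate 2, and the smooth muscle and mural list, at 4.88% against 5.68% in replicate 2. Of the 4 leukocyte genes, Mir150 (log2 ratio −0.80) and Mir155 (−1.02) were lower in replicate 1, while Mir142 (0.69) and Mir223 (0.23) were higher. Mir146a, also on the leukocyte list and on the senescence list, was not found under that symbol, so both lists leave it out. Mir140 alone, at 1602 CPM in replicate 1 and 4421 CPM in replicate 2, set the direction of the fibroblast sum. The 4 counted fibroblast genes had a median log2 ratio of 0.78. Of genes with 10 or more counts, 1 of 4 in the leukocyte list was 2-fold or more higher in replicate 2. In the fibroblast list 1 of 4 was so in replicate 2, and 1 other gene, Mir214, was so in replicate 1. None of the 2 smooth muscle genes reached 2-fold. Mir145a, at −0.999, fell just short of it on the side of replicate 2, and Mir143 stood at −0.26. The neural list held 0.0330% and 0.0386%, the epithelial list 0.0205% and 0.0225%, and the liver and endocrine list 0.0153% and 0.0478% of replicates 1 and 2. In these 3 lists 1 of 4, 3 of 5 and 1 of 6 genes were 2-fold or more higher in replicate 1, and 2, 0 and 2 in replicate 2, where 18.7% and 12.9% of all genes were so in replicates 1 and 2. The epithelial shares had overlapping Wilson 95% intervals, 0.0192 to 0.0219% in replicate 1 and 0.0206 to 0.0246% in replicate 2. Mir203 held most of them, and the 5 counted genes had a median log2 ratio of 1.86. Mir122 alone, at 13.3 CPM in replicate 1 and 396 CPM in replicate 2, set the direction of the liver and endocrine sum. The 6 counted genes of that list had a median log2 ratio of 0.24. Mir145b, Mir199a-1, Mir9-1, Mir9-2 and the 3 Mir124a genes were at 0 in both libraries. All of these except Mir145b share 20 bases with another locus, so reads of them that map to several loci would not be counted. The part of these cell types, of depth (assigned counts 2.06-fold and all tabulated reads 2.61-fold higher in replicate 1) and of the share of reads assigned (15.7% in replicate 1 and 19.8% in replicate 2) in the difference of Mir22 was not tested.

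**Figure D4:**
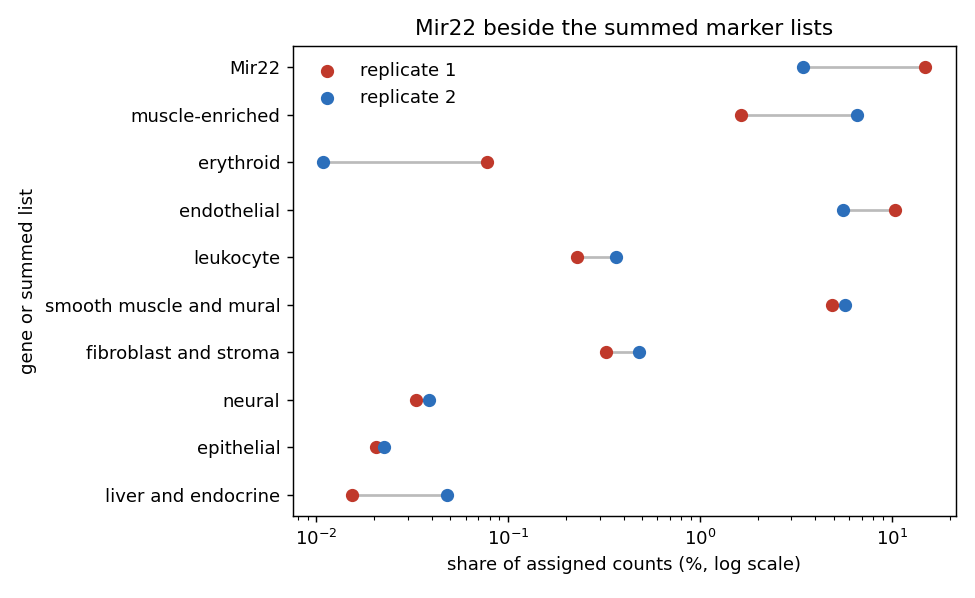
Share of assigned counts (horizontal axis, %, log scale) of Mir22, of the summed muscle-enriched list and of the summed lists of 8 other cell types, in replicate 1 and replicate 2. Mir22 at 14.97% and 3.44%, the erythroid list at 0.0777% and 0.0109% and the endothelial list at 10.4% and 5.54% are higher in replicate 1, and the sums of the other lists are higher in replicate 2, for the epithelial list within overlapping counting intervals. Mir206, Mir140 and Mir122 alone set the direction of the muscle-enriched, the fibroblast and the liver and endocrine sums. The leukocyte sum leaves out Mir146a.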

How the data were processed

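MicroRNA-seq of 2 libraries gave 1 table each of raw counts of reads per microRNA gene, as deposited by the authors, on mm10 with GENCODE M21 per the readmes. Aligner, trimming and counter: not given in the sources used here. Per library, the table has 3 count columns, read from their values as without strand, on the gene's strand (used here) and on the opposite strand. Rows of reads in no gene (multimapping, unmapped, outside microRNA genes) were kept out of totals, which left 15.7% of the reads of replicate 1 and 19.8% of those of replicate 2.

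CPM were taken over assigned counts. The log2 ratio (replicate 1 over replicate 2) was formed on CPM + 1 after scaling with edgeR TMM factors from genes with 10 or more summed counts. Intervals are Wilson for shares and exact Clopper-Pearson for ratios. The log2 ratio was tested on simulated counts with known fold changes and counting error alone, as differences from the genes left unchanged. With 1 group no test between conditions was run.

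The text names Mir22, the 10 other genes of highest mean CPM, those within 2 places of Mir22 in each library, the 6 of nearest ratio at 1000 CPM or more, the 5 of 100 or more counts with the highest ratio, the 2 nearest microRNA genes to each side and leading list members. Other list members 2-fold or more apart are named too, chosen after their values were seen. Genes and lists were chosen with earlier results of these data known. A further listed target is not reported here. Like UTR lengths were 0.8 to 1.25 times that of the target. Other totals, scalings, pseudocounts, filters and strands were tried. Tools were R 4.3.3, edgeR 4.0.16, DESeq2 1.42.0, RNAfold 2.7.2, and, under Python 3.11.15, matplotlib 3.10.9, scipy 1.17.1, pandas 2.3.3 and numpy 2.4.6.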

Additional observations from a re-analysis of the deposited data

How the results depend on the processing

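Mir22 was higher in replicate 1 under every alternative run. Its log2 ratio of 2.03 became 2.12 with plain totals, 2.07 with DESeq2 size factors, 2.31 with totals that leave Mir22 out, 1.78 with all reads of the table as the total, 2.05 with the counts without strand and 1.98 after thinning replicate 1 to the smaller total. It was 2.18 with TMM factors from all genes, an alternative chosen after seeing the data. These scalings moved the median of all genes tested by −0.15 to 0.24, and Mir22 lay 1.95 to 2.08 above that median under all of them. The mean level ran from 15121 CPM with all reads as the total to 129017 CPM without strand, and from 34378 to 149674 CPM when 1 library was left out. The rank by mean was 2, and 10 without replicate 1, 2 without replicate 2, and 1 with the counts without strand or with genes of shared stretches left out. The number of genes 2-fold or more apart was 120, with 71 higher in replicate 1 and 49 in replicate 2. A pseudocount of 5 CPM gave 71 in either direction. A filter of 100 counts, with TMM factors taken anew from the 228 genes left, gave 64 (28.1% of them). Of these, 33 were higher in replicate 1 and 31 in replicate 2, while the main factors gave 39 and 26 for the same 228 genes. The other alternatives gave 98 to 152, the last of 643 genes with no filter. Among these, thinning replicate 1 to the smaller total left 57 genes higher in replicate 1 and 53 in replicate 2, of 345 tested. Replicate 1 had the larger number under every alternative. The margins were smallest after thinning and with the factors taken anew from the 228 genes. No paired analysis was possible because there is 1 group.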

Other observations

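Mir22 lies on chromosome 11, and so do 4 of the 5 genes with 100 or more counts and the largest ratios of replicate 1 over replicate 2. These are Mir301 at a log2 ratio of 4.33, Mir144 at 3.69, Mir195a at 3.002 and Mir152 at 2.61, while the fifth, the epithelial gene Mir205 at 2.85, lies on chromosome 1. Of the 22 genes on chromosome 11 with 100 or more counts, 8 were 2-fold or more higher in replicate 1, Mir22 included, and 1 in replicate 2, with a median log2 ratio of 0.71. Of all 228 genes with 100 or more counts, 17.1% were so in replicate 1 and 11.4% in replicate 2. Chromosome 19 had a median of 0.87 over 5 genes, of which 2 were 2-fold or more higher in replicate 1. Chromosome 1 had a median of 0.78 over 17 genes, of which 6 were so. On chromosome 5 the median was −0.16 and 4 of 9 genes were so, a larger share than on chromosome 11. The chromosome was looked at after the values were seen, and no test was made.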
